A study of Sus scrofa with 55 samples.

Results

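COX1, COX2, COX3, ATP6, ATP8 and CYTB are 6 of the 13 protein genes carried on the pig mitochondrial chromosome. They were taken by symbol from the 25880 gene rows of the count table, where each symbol had 1 row (identifiers ENSSSCG00000018075, ENSSSCG00000018078, ENSSSCG00000018082, ENSSSCG00000018081, ENSSSCG00000018080 and ENSSSCG00000018094, in the order of the names). Cytoplasmic RNA of 55 single wild-type pig oocytes had been sequenced by Smart-seq2, which makes full-length cDNA from a single cell. All oocytes came from the ovaries of 4 Landrace and Yorkshire gilts aged 208 to 210 days, each given 5 IU of pregnant mare serum gonadotropin 48 h earlier, so that no unstimulated animal stands beside them. They are labelled by antral follicle stage: 11 oocytes belong to stage 1, 12 to stage 2, 11 to stage 3, 11 to stage 4 and 10 to stage 5. Gilt 201 gave 14 oocytes, gilt 205 gave 9, gilt 801 gave 12 with none at stage 5, and gilt 803 gave 20. The gilt was treated as the replicate.

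The proteins sit in the last steps of the respiratory chain. CYTB is the cytochrome b subunit of complex III, which passes electrons to cytochrome c; COX1, COX2 and COX3 form the catalytic core of complex IV, cytochrome c oxidase; ATP6 and ATP8 belong to the membrane part of complex V, the ATP synthase. All are transcribed from 1 strand of the mitochondrial genome as parts of a long precursor that is cut mostly, but not only, at tRNAs. ATP8 and ATP6 have overlapping reading frames and stay together on 1 mature RNA. An oocyte holds far more copies of the mitochondrial genome than a somatic cell and hands its mitochondria on to the embryo.

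Total counts ran from 151104 to 38282850 per oocyte, with 3 oocytes, all of gilt 803, under 1000000. Of the 12 listed oocyte markers 8 had a row. The egg coat genes ZP3 and ZP4 and the growth factor GDF9 were counted in 55 of 55 oocytes. ZP2 was counted in 54, BMP15 in 51, OOEP in 48, FIGLA in 37 and DDX4 in 30. In 14 oocytes, 13 of gilt 803 and 1 of gilt 801, the summed level of granulosa and cumulus cell markers was above that of the oocyte markers; these are called granulosa-rich below. Of the 15 listed granulosa and cumulus markers 13 had a row and 12 of them had counts in some oocytes, while AMH was at 0 in all 55. Whether such a library held attached somatic cells or an oocyte with little RNA of its own cannot be told apart from the counts. The highest correlation of log2 CPM (counts scaled to a library total of 1000000) between 2 oocytes was 0.984.

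The 6 genes together took from 1.53% to 69.7% of all counts of an oocyte, with a median of 51.5%. Their part of the mitochondrially encoded counts, those of the 13 protein genes, was much steadier, from 67.1% to 82.1% with a median of 74.6% and a coefficient of variation over oocytes of 4.5%. The oocytes therefore differed widely in how much of the library these genes filled and little in how much of the mitochondrially encoded total they made up.

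Among the complex IV genes, COX1 ranged from 3992 to 298155 CPM over the 55 oocytes, with a median of 180813. COX2 ranged from 2269 to 105521 CPM with a median of 55827. COX3 ranged from 3294 to 142104 CPM with a median of 87362. By mean CPM over oocytes COX1 ranked 1, COX3 ranked 2 and COX2 ranked 5 among all rows of the table, a ranking of counts that is not scaled for transcript length. COX1 had the largest share of mitochondrially encoded counts in 52 of 55 oocytes.

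Of the ATP synthase genes, ATP6 ranged from 2433 to 133995 CPM with a median of 79684. ATP8 ranged from 6.22 to 15135 CPM with a median of 528, a spread of 2434-fold from the lowest to the highest oocyte, against 55.1-fold for ATP6. No oocyte was without ATP8, and the fewest ATP8 counts in an oocyte were 99. CYTB of complex III ranged from 1371 to 137905 CPM with a median of 50164. ATP6 ranked 3, CYTB 4 and ATP8 19 by mean CPM.

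**Figure D1:**
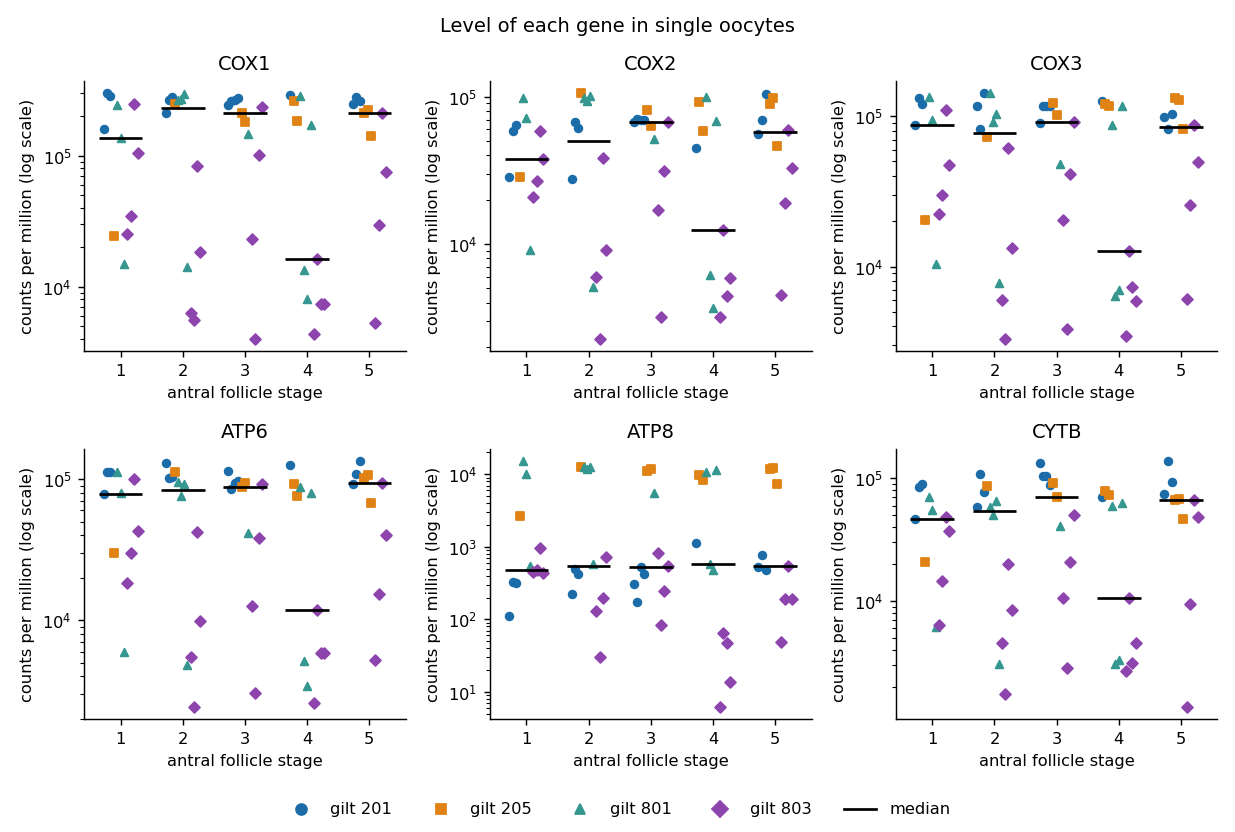
Level of each of the 6 genes in every oocyte (CPM, log axis) by antral follicle stage; point shape and colour give the gilt and the black line the median of the stage. The stages overlap in every panel, and oocytes of gilt 803 hold most of the low values. ATP8 has the widest spread, with gilt 801 reaching down into the range of gilts 201 and 803.

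Read per length, the order of the genes was different. In the deposited length-scaled table, ATP6 held 16.4 ± 2.45% of the summed values of the 13 genes (SD, n = 19 gilt-by-stage means), COX1 15.2 ± 3.49% and COX3 15.1 ± 2.49%. These neighbours in the order did not differ beyond their spread: ATP6 was above COX1 by 1.11 ± 3.96 percentage points and COX1 above COX3 by 0.102 ± 3.86. COX2 followed with 12.9 ± 2.71%, below COX3 by 2.26 ± 4.35 points and lower in 16 of 19 means. The step from COX2 to ATP8, at 7.05 ± 3.21%, was 5.83 ± 3.32 points and held in 19 of 19 means. CYTB stood at 6.98 ± 1.32%, close to the mean of ATP8, but the gilts lay on opposite sides. ATP8 averaged 10.7 ± 1.19% in gilt 205 and 9.68 ± 0.232% in gilt 801 (SD over stage means), above CYTB at 6.91 ± 0.783% and 5.84 ± 0.799%. It averaged 3.95 ± 0.235% in gilt 201 and 4.39 ± 0.657% in gilt 803, below CYTB at 8.41 ± 1.41% and 6.54 ± 0.805%. The ATP8 mean of 7.05% therefore described none of the gilts. CYTB was level within the spread with the complex I gene ND4L at 6.88%, from which it differed by 0.098 ± 1.58 points. The other complex I genes ran from 5.32% for ND4 down to 1.92% for ND5.

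In the counts the ratios to COX1 within an oocyte varied less than the levels, by 3.94-fold (COX3) to 165-fold (ATP8) from the lowest to the highest oocyte. As length-scaled values these ratios varied by 3.29-fold (COX3) to 12.2-fold (ATP8). In the length-scaled values the COX3 to COX1 ratio had a median of 1.06 (range 0.571 to 1.88) and the ATP6 to COX1 ratio a median of 1.05 (0.674 to 2.97). The COX2 to COX1 ratio had a median of 0.846 (0.299 to 2.69), and the CYTB to COX1 ratio one of 0.416 (0.248 to 1.18). For ATP6, COX2 and CYTB the highest ratio came from the same library, the only stage 1 oocyte of gilt 205, in which COX1 made up 13.3% of the mitochondrially encoded counts (95% Wilson interval 13.25 to 13.33), the lowest share of any oocyte.

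Across the 55 oocytes the 10 pairs of genes without ATP8 had Pearson correlations of log2 CPM between 0.952 and 0.985. The 5 pairs with ATP8 had correlations between 0.576 and 0.700. The points share the library and its depth, and each CPM has the other genes in its total, so the values describe these oocytes only.

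**Figure D2:**
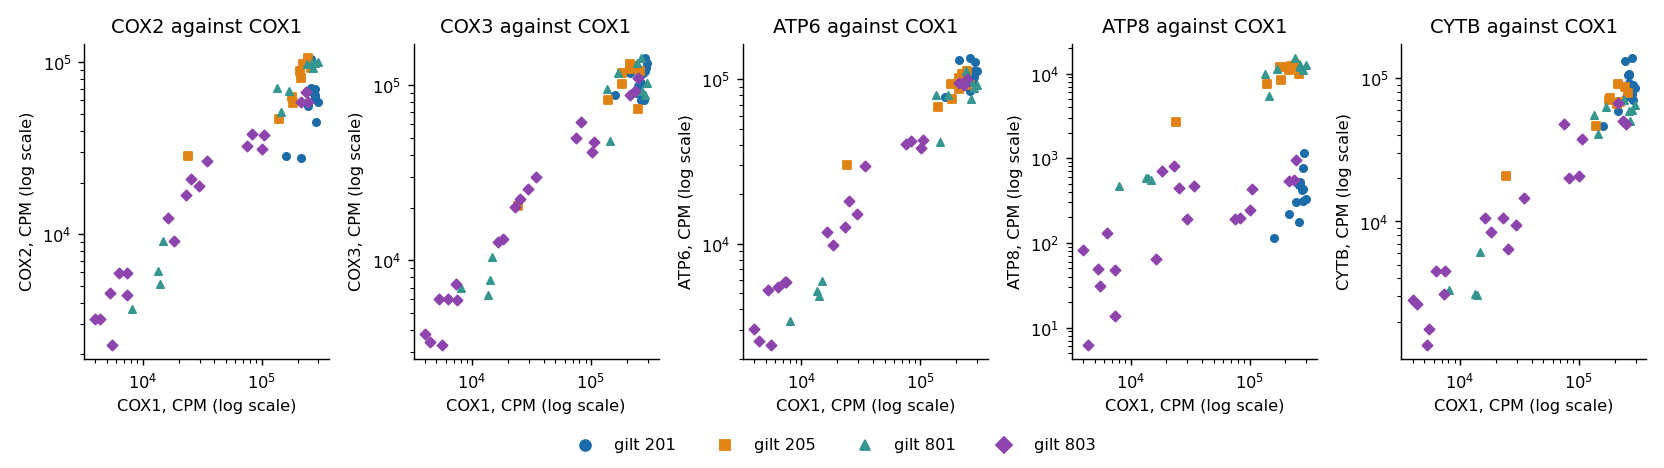
CPM of COX2, COX3, ATP6, ATP8 and CYTB against that of COX1, both axes log, 1 point per oocyte, colour and shape by gilt. COX2, COX3, ATP6 and CYTB follow COX1 along 1 band, while ATP8 forms 2 bands, with oocytes of gilts 205 and 801 above those of gilts 201 and 803 of a like COX1 level.

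The comparison over stages asks whether the oocyte's content of these RNAs differs as the antral follicle grows. COX1 had 14808 to 298155 CPM at stage 1 with a median of 135087, and 5533 to 296859 at stage 2 with a median of 229577. It had 3992 to 276180 at stage 3 with a median of 212701, 4388 to 287773 at stage 4 with a median of 16373, and 5263 to 280137 at stage 5 with a median of 211878. The 5 stages overlapped over most of their range. At stage 4, the stage of the lowest median, the mean over gilts was 159202 ± 122063 CPM (SD, n = 4 gilts). Gilts 801 and 803 gave 4 oocytes each there, and also 4 each at stage 2, the stage of the highest median.

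COX2 moved from a stage 1 median of 37988 CPM to 57500 at stage 5, COX3 from 88010 to 84735 and ATP6 from 78444 to 93178. ATP8 had 473 and 536, and CYTB 46382 and 66596. The ranges of stages 1 and 5 overlapped for each of these genes. Within gilts, COX1 averaged 247097 CPM at stage 1 and 262915 at stage 5 in gilt 201, 24199 and 191662 in gilt 205, and 103045 and 80639 in gilt 803. It was thus higher at stage 5 in 2 of the 3 gilts that have both stages, and the gilt with the largest difference has a single oocyte at stage 1.

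None of the 6 genes passed the test of stage 5 against stage 1 (edgeR quasi-likelihood test on counts summed per gilt and stage, with gilt in the model and Benjamini-Hochberg adjustment), and neither did any other gene, so 0% of the 15637 genes tested were called, with 840 at an unadjusted p under 0.05 and 365 called by DESeq2. The fitted log2 change, stage 5 minus stage 1, was -0.87 ± 1.22 (SE) for COX1, -0.45 ± 1.06 for COX2 and -0.77 ± 1.12 for COX3. It was -0.83 ± 1.11 for ATP6, -1.08 ± 1.17 for ATP8 and -0.31 ± 1.09 for CYTB. The smallest of the 6 adjusted p-values was 0.996, and the median of the 6 changes was -0.80 against -0.27 over all genes tested. Unlike the CPM given above, the fit used TMM scaling, which took COX1 in gilt 201 at stage 3 from 262506 to 973049. With TMM factors from nuclear genes alone the median of the 6 changes was -0.81. The fitted changes are therefore not changes in the part of all counts. Every estimate was smaller than its own error, and the sign was not stable. With limma voom the 6 changes ran from 2.12 to 2.95, and without gilt in the model they ran from 0.68 to 1.32, in each case with 0 of 6 called. Without gilt 803 the changes of COX1, COX2, ATP8 and CYTB were positive, from 0.20 to 0.45.

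**Figure D3:**
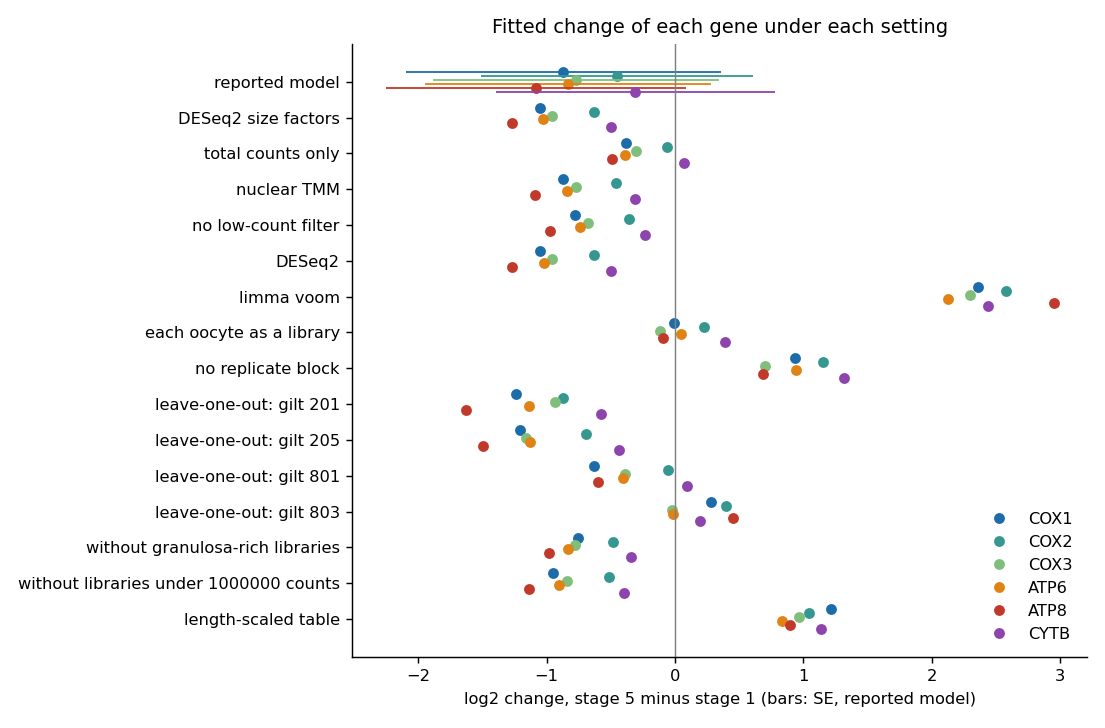
Fitted log2 change of each gene, stage 5 minus stage 1 (x axis), under the reported model and each alternative (y axis); bars on the first row are standard errors. All 6 genes lie above 0 with limma voom, with no replicate block and in the length-scaled table, signs are mixed in 4 settings (each oocyte as a library, total counts only, gilt 801 or gilt 803 left out), and all 6 lie below 0 in the rest.

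Of the other stage tests, none called a member. The F test over all stages called 0 of 6 members and 0% of all genes by edgeR, with 840 genes at an unadjusted p under 0.05 and 47 called by DESeq2. Stage 2 against stage 1, stage 3 against stage 2, stage 4 against stage 3 and stage 5 against stage 4 each called 0 of 6 members and 0% of genes by edgeR. Over these 4 comparisons at most 1034 genes (stage 2 against stage 1) had an unadjusted p under 0.05, and DESeq2 called 216 to 415 genes and 0 members. The smallest unadjusted p of a member was 0.181, for COX2 between stages 4 and 3. A trend over the stages called 0 of 6 members against 0.0128% of genes (2 by edgeR, 161 by DESeq2, which also called 0 members), with slopes from -0.25 ± 0.250 log2 units per stage for ATP8 to -0.13 ± 0.235 for CYTB. With errors of this size a doubling at stage 5 was not detectable.

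Shares of mitochondrially encoded counts do not have nuclear counts in their total. They still varied with the mitochondrially encoded percent of the library: over the 55 oocytes Pearson's r was 0.691 for the COX1 share, -0.668 for COX2 and -0.530 for COX3, and between -0.175 and 0.157 for ATP6, ATP8 and CYTB. COX1 made up 23.6 ± 7.87% of them at stage 1 (SD, n = 4 gilts), 28.7 ± 3.71% and 28.5 ± 3.63% at stages 2 and 3, 26.8 ± 6.54% at stage 4, and 26.5 ± 4.45% (n = 3 gilts) in stage 5 oocytes. ATP6 went from 13.9 ± 2.04% at stage 1 through 11.2 ± 1.55% at stage 3 to 12.95 ± 0.763% at stage 5. The shares of COX2, COX3 and CYTB at the 5 stages lay between 9.74 and 11.7%, 13.3 and 15.1%, and 9.05 and 10.2%. The means of COX1, COX2, COX3 and CYTB at the 5 stages differed by no more than the larger SD between gilts of the stages compared, and those of ATP6 at stage 3 lay below those at stages 1 and 5 by more than either SD.

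The slope of a share over the stages, with gilt as a term, was tested by permuting stages within gilts (two-sided permutation test, 19 gilt-by-stage means, adjusted over the 13 genes). It called 0 of the 6 genes, and 0% of the 13, at an adjusted p under 0.05. COX1 had a slope of 0.532 ± 0.659 percentage points per stage (SE; adjusted permutation p = 0.925) and COX2 one of -0.363 ± 0.283 (0.925). ATP6 had -0.405 ± 0.235 (adjusted permutation p = 0.837, unadjusted 0.111) and ATP8 -0.0294 ± 0.0179 (0.837, unadjusted 0.129). COX3, at 0.122 ± 0.347, and CYTB, at -0.0127 ± 0.243, had slopes below their errors. Without gilt 205 the slopes of COX1, COX2, COX3 and CYTB took the opposite sign, at -0.148, 0.0725, -0.371 and 0.285.

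The larger differences lay between animals. ATP8 made up 0.0659 ± 0.0422% of mitochondrially encoded counts in gilt 201 (SD, n = 5 stage means) and 0.215 ± 0.130% in gilt 803 (n = 5), but 1.38 ± 0.148% in gilt 205 (n = 5) and 1.32 ± 0.0907% in gilt 801 (n = 4). Each gilt is 1 animal, so these spreads are between its stages. Among single oocytes the share ran from 0.872 to 1.65% in the 21 oocytes of gilts 205 and 801. It ran from 0.0222 to 0.910% in the 34 oocytes of gilts 201 and 803. A single oocyte of the 34 reached the lowest value of the 21, the fourth stage 2 oocyte of gilt 803, which is the shallowest library with 108 ATP8 counts of 11864 (95% Wilson interval 0.755 to 1.10%). The high group and the low group were each found at every stage for which the gilts gave oocytes.

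The difference in the ATP8 share among gilts, with stage as a term, passed the test (permutation of gilts within stages, 19 means, adjusted permutation p = 0.00243 over the 13 genes; 1.31 percentage points between the highest and the lowest gilt). It passed in 11 of 11 alternatives, with adjusted permutation p-values from 6.5e-05 to 0.0457. The same test called 4 of the 6 genes, where 61.5% of the 13 genes were called, so a call was common among the mitochondrially encoded genes as a whole. The complex I genes ND1 and ND2 passed at the same adjusted permutation p as ATP8 (0.00243) and divided the gilts in the same pairs. ND1 made up 2.75 ± 0.144% in gilt 201 and 3.29 ± 0.465% in gilt 803 (SD, n = 5 stage means each), against 5.80 ± 0.463% in gilt 205 (n = 5) and 5.98 ± 0.891% in gilt 801 (n = 4). ND2 made up 2.99 ± 0.223% and 3.63 ± 0.955% in gilts 201 and 803, against 5.99 ± 0.450% and 6.60 ± 1.29% in gilts 205 and 801. The ranges over single oocytes met for both genes: ND1 reached 4.77% in gilt 803 and started at 3.22% in gilt 801, and ND2 reached 7.96% and started at 2.99%. Without the granulosa-rich oocytes gilt 803 averaged 3.78 ± 0.614% for ND1 and 5.08 ± 0.954% for ND2. Its ND2 share then stood nearer that of gilt 205 than that of gilt 201. The pairing of gilts 205 and 801 against 201 and 803 was seen in the data and was not tested as such.

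COX1 was also called, with 32.4 ± 1.26% in gilt 201, 23.7 ± 5.98% in gilt 205, 28.3 ± 3.64% in gilt 801 and 23.3 ± 2.90% in gilt 803 (adjusted permutation p = 0.0180). COX2 ran the other way, lowest in gilt 201 at 7.16 ± 1.54%, with 11.2 ± 2.83% in gilt 205, 11.4 ± 0.561% in gilt 801 and 12.6 ± 0.580% in gilt 803 (0.0156). ATP6 was lowest in gilt 801, at 10.2 ± 1.04%, and between 12.6 and 13.7% in the other gilts (0.0218). Gilts 201 and 803, the extremes of the COX1 and COX2 shares, were also those of the mitochondrially encoded percent of all counts, 81.0 ± 3.26% and 22.2 ± 13.5%. Gilt 205, close to gilt 803 in its COX1 share, had a mitochondrially encoded percent of 68.6 ± 28.4%. With summed counts, and without the granulosa-rich oocytes, gilt 205 had the lowest COX1 and the highest COX2 share. The part of the mitochondrially encoded percent in these shares was not tested. COX3 and CYTB did not pass, with an adjusted permutation p of 0.137 each. Without the 14 granulosa-rich oocytes ATP8 was the only member called, at an adjusted permutation p of 0.00286. COX1 in gilt 803 then averaged 27.3 ± 5.58% and COX2 10.3 ± 2.44%, both between the lowest and the highest of the other gilts. ATP8 was also the only member called without the 3 oocytes under 1000000 counts (adjusted permutation p = 0.00266) and without gilt 201 (0.0457), and without gilt 803 the calls were COX1 (0.0301) and ATP8 (0.0301). Gilt 803 also had the highest granulosa and cumulus marker level, 7964 ± 4569 CPM against 614 ± 753 in gilt 201, 982 ± 1843 in gilt 205 and 3921 ± 5030 in gilt 801.

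**Figure D4:**
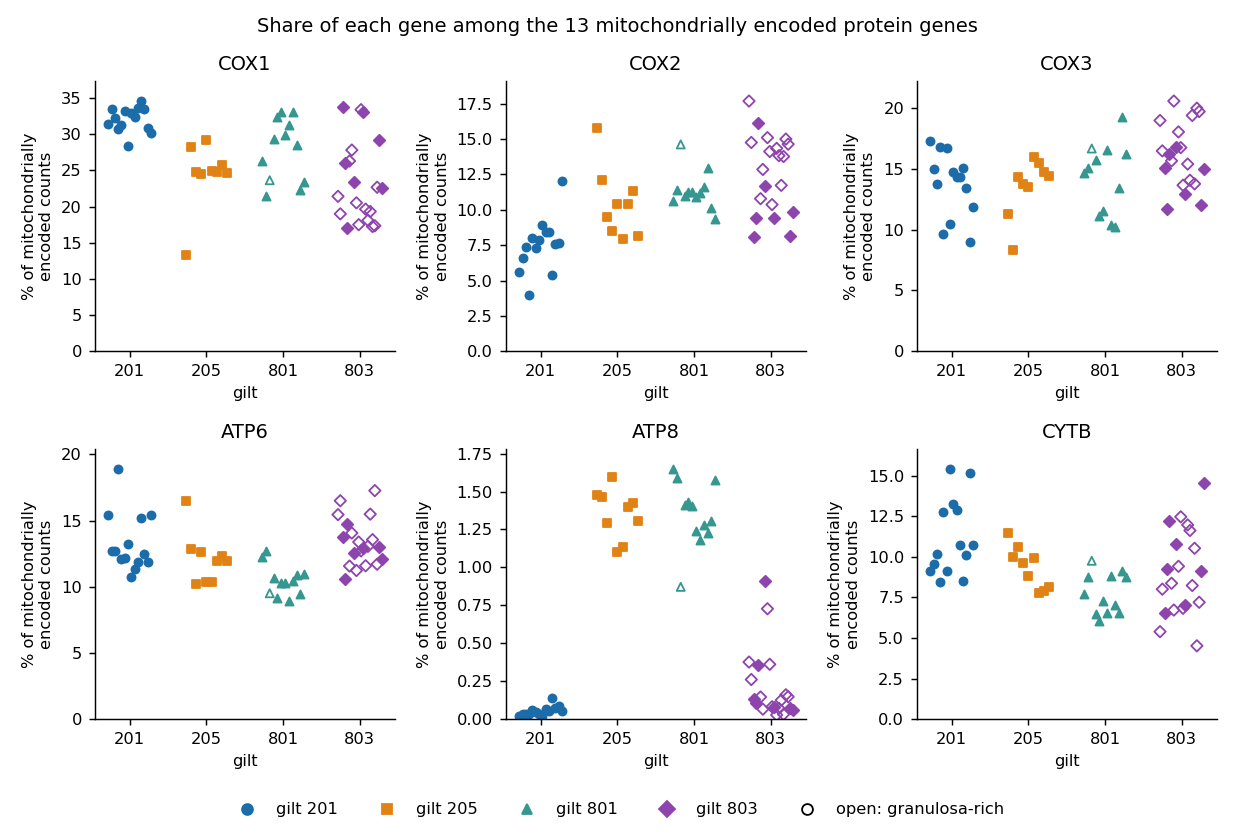
Share of each gene in the counts of the 13 mitochondrially encoded protein genes (percent, axes from 0), 1 point per oocyte by gilt; open points are granulosa-rich oocytes. ATP8 lies near 1.38 and 1.32% in gilts 205 and 801 and near 0.0659 and 0.215% in gilts 201 and 803, while the other 5 genes overlap between gilts.

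ATP8 was also compared with ATP6, the partner on its RNA. The ATP8 to ATP6 count ratio was 0.0896 to 0.127 in the 9 oocytes of gilt 205 and 0.0917 to 0.156 in the 12 of gilt 801. It was 0.00144 to 0.00902 in the 14 oocytes of gilt 201 and 0.00237 to 0.0725 in the 20 of gilt 803. The 2 pairs of gilts did not overlap in this ratio. The COX3 to ATP6 count ratio, from neighbouring genes with no such split, had a range of 0.652 to 2.03 over all 55 oocytes.

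The stage means of the ATP8 to ATP6 count ratio averaged 0.00482 in gilt 201 and 0.111 in gilt 205. In the length-scaled table the same split was present and smaller by gilt mean, at 0.212 and 0.682 in these gilts. The ATP8 to ATP6 ratio there was 0.577 to 0.796 in gilts 205 and 801 and 0.162 to 0.463 in gilts 201 and 803, again without overlap. Relative to COX1, a count was worth 12.1 to 17.3 length-scaled units for ATP8 in gilts 205 and 801, but 15.0 to 333 in gilts 201 and 803. For the other members the worth of a count relative to COX1 hardly varied, from 1.70 to 2.34 for COX2, 1.63 to 2.00 for COX3, 1.91 to 2.40 for ATP6 and 1.03 to 1.38 for CYTB. The sources used here do not say how reads in the overlap of ATP8 and ATP6 were assigned, nor how long the reads of each library were. Over all oocytes the mean shares of ND1 and ND2 divided the gilts in the same pairs by a smaller factor. Without the granulosa-rich oocytes the ND2 share of gilt 803 was 5.08%, nearer gilt 205 at 5.99% than gilt 201 at 2.99%. Whether the ATP8 split lies in the animals or in their handling cannot be told apart, and the part of read assignment in it was not tested.

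**Figure D5:**
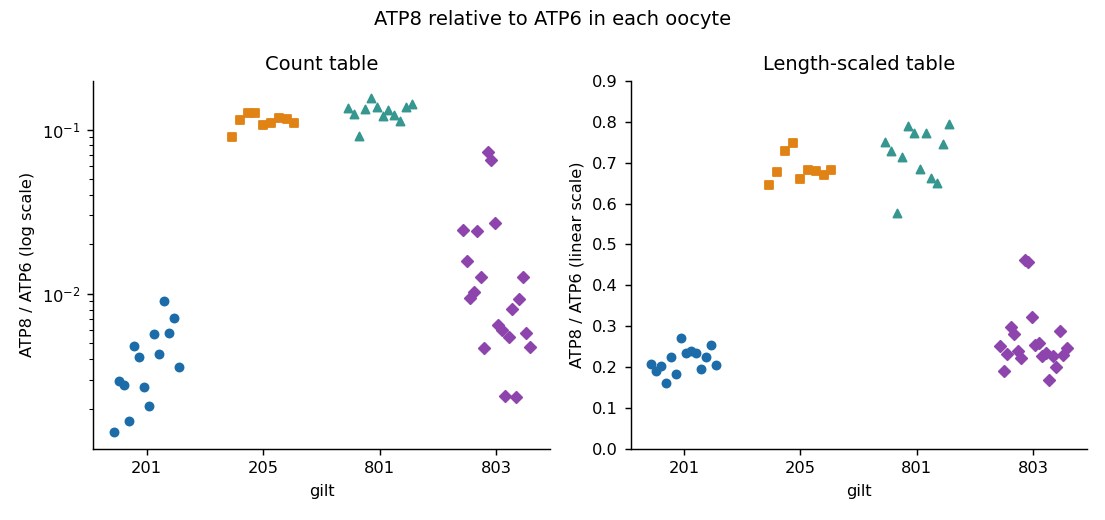
ATP8 to ATP6 ratio in each oocyte by gilt, from the count table (left, log axis) and from the length-scaled table (right, linear axis from 0). Oocytes of gilts 205 and 801 lie above all oocytes of gilts 201 and 803 in both panels.

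As levels, the 6 genes were lowest in gilt 803. COX1 averaged 262613 ± 15505 CPM in gilt 201 (SD, n = 5 stage means), 176156 ± 87710 in gilt 205, 151220 ± 41198 in gilt 801 (n = 4) and 62334 ± 41296 in gilt 803. The edgeR test among gilts called 3 of the 6 genes, ATP8 (adjusted p = 0.00359), CYTB (0.0324) and ATP6 (0.0441), where 2.17% of all genes were called. COX3 (0.0641), COX1 (0.0814) and COX2 (0.0825) did not pass. Without gilt 803, 0 of 6 were called by edgeR, with ATP8 at an adjusted p of 0.134, and without the granulosa-rich oocytes ATP8 alone was called, at 0.0224. ATP8 was also the only member called without gilt 201 (0.00168) or without gilt 801 (0.0143), while without gilt 205 the edgeR test called 6 of 6. In gilt 803 the mean COX1 level was 141917 ± 94307 CPM over its 7 remaining oocytes (SD, n = 4 stage means). The part of the somatic markers in the level of gilt 803 was not tested further.

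The nuclear genes of the same complexes and of mitochondrial expression were read from lists drawn up with earlier results of these data known. For stage 5 against stage 1, edgeR called 0 of 6 tested genes of complex III, 0 of 14 of complex IV, 0 of 11 of complex V and 0 of 21 assembly factors of these complexes. Their median log2 changes were -0.73, -0.05, 0.24 and -0.07. The lists for mitochondrial transcription and DNA maintenance (0 of 16), RNA processing and stability (0 of 20) and biogenesis regulators (0 of 8) had medians of 0.32, -0.38 and 1.39. In the last of these 7 of 8 changes were positive. The 7 mitochondrially encoded complex I genes, the rest of the mitochondrial protein genes, had 0 of 7 called and a median of -0.71. ND1 and ND2 had the lowest changes, -0.87 ± 1.10 and -0.87 ± 1.14, and ND5 and ND6 the highest, -0.47 ± 1.077 and -0.38 ± 1.04.

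None of the following genes passed the test. In complex III, UQCR11 and the core protein gene UQCRC2 had fitted changes of -1.39 ± 1.05 and -1.15 ± 1.57, and UQCRQ and UQCR10 of 0.06 ± 0.840 and 0.08 ± 0.756. In complex IV, COX4I2, an isoform of subunit 4, had -3.41 ± 1.84 and NDUFA4 -0.34 ± 0.95, while COX7A2 had 0.62 ± 0.750 and COX6A1 0.53 ± 0.688. In complex V, the inhibitor gene ATP5IF1 had -0.88 ± 0.811 and ATP5PB -0.53 ± 0.901, while ATP5F1D had 0.79 ± 0.733 and ATP5ME 0.55 ± 0.734.

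Among assembly factors, TMEM70, needed to build ATP synthase, had 1.21 ± 1.06, and TACO1, which activates COX1 translation, 0.82 ± 1.06. TTC19 and COX19 had -1.10 ± 1.41 and -0.38 ± 1.03. MGME1, a mitochondrial DNA exonuclease, had 2.48 ± 1.37 and PRIMPOL 1.54 ± 1.02, against -1.93 ± 1.06 for RNASEH1 and -0.24 ± 1.06 for the topoisomerase TOP1MT. In RNA processing, the poly(A) polymerase MTPAP had 1.22 ± 1.43 and ANGEL2 0.69 ± 0.896, against -1.73 ± 1.48 for PTCD3 and -0.90 ± 1.57 for the helicase SUPV3L1. Of the biogenesis regulators, ESRRG had 1.52 ± 0.967, PPRC1 1.27 ± 0.988, YY1 0.70 ± 1.22 and GABPB1 0.41 ± 1.65.

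Among gilts, edgeR called COX4I2 of the complex IV list (1 of 14, adjusted p = 0.0128) and 0 genes in the other 6 nuclear lists. COX4I2 averaged 11.8 CPM in gilt 201, 2.28 in gilt 205, 35.5 in gilt 801 and 77.8 in gilt 803, each after TMM scaling. Of the 7 complex I genes 3 were called, ND4 (0.0291), ND6 (0.0338) and ND4L (0.0498).

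Genes whose level over the 19 gilt-by-stage sums followed that of COX1 were ranked by Spearman's rho among 8165 nuclear genes, with nuclear counts as the total so that COX1 itself did not enter it. The highest values were 0.765 for POLR2A, the large subunit of RNA polymerase II, 0.760 for the egg coat gene ZP4, 0.753 for SNRNP70, 0.719 for ATP6AP2 and 0.707 for MOCS1. The lowest were -0.879 for CHCHD2, -0.875 for AKR7A2, -0.860 for TKT, -0.858 for COX8A, a nuclear subunit of complex IV, and -0.856 for RHOBTB1. Over the 55 oocytes the log2 CPM of COX1 itself had a Pearson correlation of 0.637 with that of the summed oocyte markers. With the summed granulosa and cumulus markers it was -0.625. All of these values share their 4 gilts and libraries and are a description of them.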

How the data were processed

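The deposited table holds raw counts per gene and oocyte; the tools named in the submitters' processing notes are StringTie 1.2.2, featureCounts, HISAT2 2.1.0 and Trim Galore 0.4.3. Since the sources used here name no build, strand setting or treatment of overlapping genes, no coordinates are printed. A second deposited table carries a TPM name, but its columns do not share a sum; it was read as a length-scaled value of unstated scale, over 23498 genes, 1 incomplete last line left out.

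CPM used all counts of an oocyte; levels are means over oocytes per gilt and stage. Counts were summed per gilt and stage (19 sums, of which 4 hold a single oocyte) and fitted in edgeR (version 4.0.16, R 4.3.3; TMM, filterByExpr, glmQLFit, glmQLFTest, two-sided, adjusted p under 0.05), with stage and gilt in the model. The common biological coefficient of variation was 1.24 and TMM factors ran from 0.270 to 3.59. Gilt is the block because the labels name the animal: deviations of sums of the same gilt had mean correlations of 0.0124, 0.136, 0.141 and 0.133 (gilts 201, 205, 801 and 803), and of different gilts -0.0318. Shares were tested with 100000 permutations. Alternatives used DESeq2 1.42.0 and limma 3.58.1. Of 330 shares of single oocytes, the widest 95% Wilson interval was ± 0.762 points, and ± 0.363 in oocytes of at least 1000000 counts; intervals cover counting error only.

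The 6 genes and the lists were chosen with earlier results of these data known. In each list, the 2 highest and the 2 lowest fitted changes among genes of at least 10 CPM are named; ND4, ND6 and ND4L were named after their values were seen.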

Additional observations from a re-analysis of the deposited data

Results flagged for a closer look

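Of 60 groups of 4 to 10 values examined (CPM and shares of the 6 genes at each stage, over gilt means or over the 10 oocytes of stage 5), 2 held a value far from the others, where chance gives about 1 in 20. At stage 1 the COX3 share was 11.3% in gilt 205, which has 1 oocyte there, against 15.3 to 15.6% in the other 3 gilts. At stage 2 the CYTB share was 6.60% in gilt 801, against 9.52 to 10.1% in the other 3.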

How the results depend on the processing

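No member was called in any stage comparison under any of 15 alternatives, nor in the slope of any share under 12. Signs of the stage 5 against stage 1 changes were not stable, and the cause was not tested. In the order COX1, COX2, COX3, ATP6, ATP8, CYTB they were 2.36, 2.58, 2.30, 2.12, 2.95 and 2.44 with limma voom, 1.21, 1.04, 0.97, 0.83, 0.90 and 1.13 in the length-scaled table, and 0.93, 1.15, 0.70, 0.94, 0.68 and 1.32 with no replicate block (gilt left out of the model). With each oocyte as a library COX2 was at 0.22, ATP6 at 0.043 and CYTB at 0.39; with total counts only CYTB was at 0.071. Without gilt 803 COX1 was at 0.28, COX2 at 0.40, ATP8 at 0.45 and CYTB at 0.20, and without gilt 801 CYTB was at 0.10. Over the 4 left-out gilts COX1 ran from -1.24 to 0.28, COX2 from -0.87 to 0.40, ATP8 from -1.62 to 0.45 and CYTB from -0.57 to 0.20. With total counts only the median over all genes was -1.16 and that of the 6 genes -0.35. Slopes of the shares reversed without gilt 205 for COX1 (-0.148), COX2 (0.0725), COX3 (-0.371) and CYTB (0.285), at the other ends of ranges that reached 1.12, -0.673, 0.457 and -0.184 with another gilt left out, and for CYTB with summed counts (0.280), no replicate block (0.0678), the length-scaled table (0.0576) and no granulosa-rich oocytes (0.0624).

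Among gilts, edgeR called 3 members. The number was 6 with DESeq2, 6 with no low-count filter, 6 with each oocyte as a library, 5 with limma voom, 2 with no replicate block (stage left out of the model), 1 with total counts only, 1 in the length-scaled table and 1 without granulosa-rich oocytes; with a gilt left out it was 0 to 6 (0 without gilt 803, 1 without gilt 201 or 801, 6 without gilt 205). ATP8 kept its call in 13 of 15. Of the shares, 4 members differed among gilts; 1 did with summed counts, 1 without granulosa-rich oocytes, 1 without oocytes under 1000000 counts and 4 with no replicate block. With a gilt left out it was 1 to 5 (1 without gilt 201, 2 without gilt 803). Leaving ATP8 out of the total, an alternative chosen after seeing the data, called the other 3 again. Stage means of CPM under alternatives also chosen afterwards stayed within 1 SD between gilts in 240 of 240 cases. Leaving out 1 gilt cannot move a mean by that SD, so those cases could not fail, and no conclusion is drawn from the count. Over all genes, stage 5 against stage 1 had 0 calls by edgeR, 365 by DESeq2 and 23 with no low-count filter, and gilts had 339, 1006 and 935. The 4 animals and their spread limit what the stage tests could detect.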
